A study of Drosophila melanogaster with 6 samples.

Results

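Troponin, tropomyosin and tropomodulin form the calcium switch of the thin filament and cap its pointed end, and the 10 genes that encode these proteins in Drosophila melanogaster flight muscle are described here: up (troponin T), wupA (troponin I), TpnC4, TpnC41C, TpnC47D, TpnC73F and TpnC25D (troponin C), Tm1 and Tm2 (tropomyosin) and tmod (tropomodulin). They were chosen by gene symbol among the 17494 genes of the adult count table, and all 10 were found, each in a single row. All 10 also passed the filter on low counts that left 9276 genes to test.

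The series measured polyadenylated RNA in hand-dissected indirect flight muscles, labelled as dorsolongitudinal muscle, of adult females aged 2 days. The M1BP RNAi group had 3 samples from flies carrying the muscle driver Mef2-GAL4 and an RNAi transgene against M1BP, which encodes a transcription factor that binds the core promoter element Motif 1. The WT group had 3 samples from Mef2-GAL4 crossed to the w1888 strain, so that both groups carried the driver. Each sample pooled 30 females, collected in batches of 15 flies. A single RNAi line was used, the driver acts in muscles throughout the body and from the earliest stages of myogenesis, and the labels do not say how the 3 samples of a group were separated, so p-values measure only the spread between these samples.

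In resting muscle, tropomyosin lies along actin and blocks myosin binding. Calcium binding to troponin C is passed through troponin I and troponin T to tropomyosin, which then moves away from the myosin sites. Indirect flight muscle is also activated by stretch, and its principal troponin C, TpnC4, serves stretch activation, whereas TpnC41C serves activation by calcium. TpnC47D and TpnC73F are known chiefly from larval muscle and from tubular muscles of the adult such as those of the leg. Tropomodulin caps the pointed end of the thin filament and limits its growth.

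M1BP itself had 49.5, 50.1 and 52.0 normalized counts in the M1BP RNAi samples, against 148.9, 123.4 and 119.1 in WT. It fell by 1.36 on the log2 scale (SE 0.16), with adjusted p = 3.36e-04 by the quasi-likelihood test of edgeR, Benjamini-Hochberg adjusted over the 9276 genes, which is the test behind every adjusted p that follows unless another is named. Scaled by total library size it was at -0.61 and no longer past the threshold. Total counts were 37908823 to 64768186 in M1BP RNAi and 45132859 to 64871987 in WT. Mitochondrially encoded RNAs took 54.0% to 59.4% of the counts in M1BP RNAi and 71.5% to 76.3% in WT, which left 17284968 to 27158157 and 10700748 to 18518305 nuclear counts. With TMM scaling the median log2 fold change of all genes was 0.02, with 1016 genes called higher and 610 lower, whereas scaling by total library size gave a median of 0.77, with 2576 higher and 137 lower. Changes in that scaling are read relative to 0.77. Of 6 flight muscle markers, Act88F, fln, Mhc, TpnC4 and Mf were each at 26738 normalized counts or more in every library, and the transcription factor gene salm at 1026 or more, so that none of the markers of the labelled tissue was absent. Markers of other tissues were also present. Summed fat body markers were at 28331 to 40386 normalized counts in M1BP RNAi and 55010 to 91212 in WT, with 6 of 8 tested. In WT most of that sum came from Yp1, Yp2, Yp3 and apolpp, which were at log2 fold changes of -1.28 to -1.94, whereas FASN1 rose by 1.41 (adjusted p = 1.11e-04 by edgeR). Lsp2 was at 3.42 without passing the threshold. The summed neuron markers were at 1712 to 2327 in M1BP RNAi and 3451 to 4652 in WT, with all 6 tested. Blood cell markers summed to 1573 to 2214 in M1BP RNAi and 2920 to 3562 in WT, tracheal markers to 277 to 507 in M1BP RNAi and 652 to 673 in WT, and epidermal and cuticle markers, of which Ccp84Aa was at 0 counts in every library, to 730 to 1557 in M1BP RNAi and 383 to 1372 in WT. Among the tracheal markers, trh passed the threshold, with a log2 fold change of -1.33 (adjusted p = 9.04e-04 by edgeR). Scaled by total library size trh was at -0.58 and no longer past it. The part of these other tissues in the values below was not tested. In whole tissue, fewer cells of a type and less RNA per cell cannot be told apart.

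The question for the thin filament genes was which of them differed upon M1BP RNAi, and in what proportion to each other. None of the 10 genes passed the threshold of an adjusted p of at most 0.001 and a change of at least 1.5-fold by edgeR, whereas 17.5% of all genes tested did (11.0% higher and 6.58% lower). At an unadjusted p of at most 0.05 the count was 5 of 10, against 61.1% of all genes, and DESeq2's Wald test called 2 of 10, Tm1 and Tm2, both higher, where it called 17.8% of all genes higher and 14.2% lower. At an adjusted p of at most 0.05 and the same fold, Tm1, Tm2 and TpnC25D were higher and no gene was lower, 3 of 10 against 47.1% of all genes (25.4% higher and 21.8% lower). With no requirement on fold, up and tmod joined them, 5 of 10 against 56.2% of all genes. The 3 M1BP RNAi values lay wholly above the 3 WT values for 3 of 10 genes and wholly below them for 1, together 4 of 10, against 33.1% and 31.1%, together 64.2%, of all genes. Over both directions together, each of these shares was below that of all genes tested, while for higher genes alone the 3 of 10 at 0.05 and the 2 of 10 under DESeq2 were slightly above it. Their median log2 fold change was 0.44, with 8 genes above 0 and 2 below, against a median of 0.02 over all genes.

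**Figure D1:**
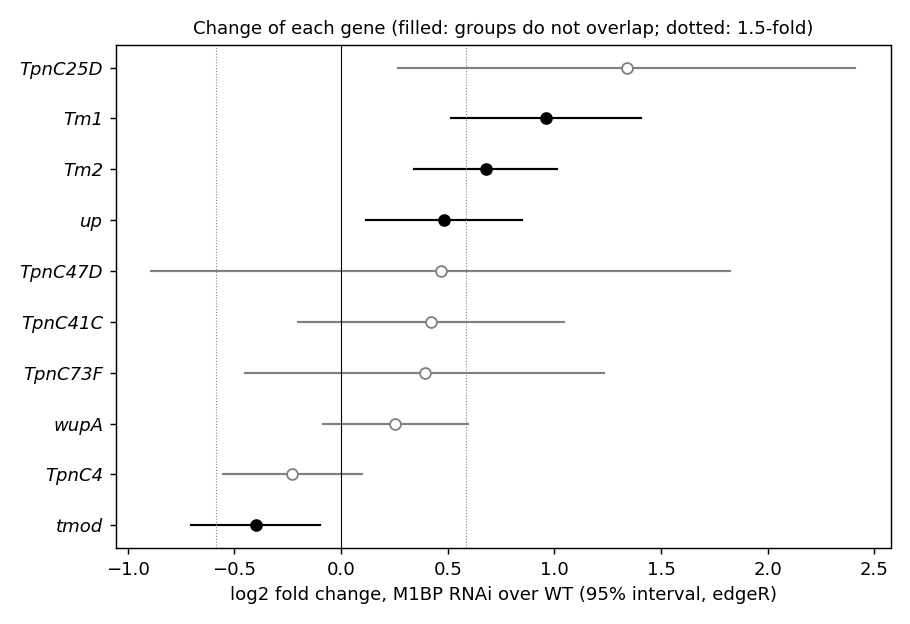
Log2 fold change of each gene, M1BP RNAi over WT, with TMM scaling and the 95% interval of edgeR's fit; filled points mark genes whose 3 M1BP RNAi and 3 WT values do not overlap, and dotted lines mark 1.5-fold. TpnC25D at 1.34, Tm1 at 0.96 and Tm2 at 0.68 sit right of the right dotted line, tmod at -0.40 and TpnC4 at -0.23 are left of 0 (both are right of 0 when scaled by total library size, at 0.35 and 0.53), and the intervals of TpnC25D and TpnC47D are the widest.

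Among the 10 genes, TpnC25D aside, the tropomyosin genes had the highest fold changes over WT. Tm1 (FBgn0003721, 3R:15281371-15308779 on the plus strand, dm6, 9463 bp of exon) encodes muscle and cytoskeletal tropomyosins, among them the heavy flight muscle forms known as troponin H. It had 65596, 55389 and 44712 normalized counts in M1BP RNAi, against 27396, 24045 and 33646 in WT. All 3 M1BP RNAi samples were above all 3 WT samples, although the M1BP RNAi samples were spread, with replicate 1 the highest and replicate 3 the lowest. The log2 fold change was 0.96 (SE 0.19, 95% interval 0.52 to 1.41), a 1.95-fold higher level, with adjusted p = 0.00387 by edgeR. Gene-level exon counts do not separate the isoforms of the locus.

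Tm2 (FBgn0004117, 3R:15310193-15315197, plus strand, 2613 bp of exon) encodes the standard muscle tropomyosin and starts 1413 bp downstream of the end of Tm1 on the same strand. It had 113040, 93469 and 87908 normalized counts in M1BP RNAi, against 61726, 57272 and 65084 in WT. Again no M1BP RNAi sample reached down to a WT sample, and M1BP RNAi replicate 1 was the highest. This was a log2 fold change of 0.68 (SE 0.14, 95% interval 0.34 to 1.01), or 1.60-fold, with adjusted p = 0.0052 by edgeR. Leaving out M1BP RNAi replicate 1 gave 0.82 for Tm1 (adjusted p = 0.00967 by edgeR) and 0.57 for Tm2 (adjusted p = 0.00902 by edgeR), which put Tm2 under 1.5-fold. Under DESeq2 the fold changes were 0.94 for Tm1 (adjusted p = 4.6e-06) and 0.66 for Tm2 (adjusted p = 3.13e-05), so that the call of these genes at the threshold depended on the tool.

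Troponin T and troponin I were less displaced than tropomyosin. The up gene (FBgn0004169, X:13593474-13602578, minus strand, 2530 bp of exon) encodes troponin T, which anchors the troponin complex to tropomyosin. It had 128955, 101919 and 95301 normalized counts in M1BP RNAi, against 78411, 70970 and 84197 in WT. The groups did not overlap, but the log2 fold change of 0.48 (SE 0.16, 95% interval 0.12 to 0.85) was under 1.5-fold, with adjusted p = 0.0317 by edgeR and a range of 0.0368 to 0.0984 over the 6 fits that omitted a sample.

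Troponin I, the inhibitory subunit that holds the filament in its relaxed state, is encoded by wupA (FBgn0283471, X:18105568-18116922, minus strand, 1978 bp of exon). It had 86392, 77476 and 64715 normalized counts in M1BP RNAi, against 66319, 65412 and 59918 in WT. The groups overlapped, since M1BP RNAi replicate 3 was below WT replicates 1 and 2. On the log2 scale the difference was 0.25 (95% interval -0.08 to 0.59) with adjusted p = 0.172 by edgeR, an interval that leaves room for a change of 1.5-fold upward but not downward.

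Among the troponin C genes, TpnC4 (FBgn0033027, 2R:5503437-5507866, minus strand, 849 bp of exon) was by far the most abundant. It had 102831, 118270 and 114584 normalized counts in M1BP RNAi, against 142460, 136709 and 114194 in WT. WT replicate 3 lay within the range of the M1BP RNAi samples, while the other WT samples lay above it. The log2 fold change was -0.23 (95% interval -0.55 to 0.10, adjusted p = 0.199 by edgeR). It turned to 0.53 under scaling by total library size, which is 0.24 below the median of all genes in that scaling.

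TpnC41C (FBgn0013348, 2R:5065237-5070210, minus strand, 1880 bp of exon), the other flight muscle troponin C, had 4304, 3142 and 2217 normalized counts in M1BP RNAi, against 1850, 3034 and 2324 in WT. The groups overlapped, since the lowest M1BP RNAi sample was below 2 of the 3 WT samples. Its log2 fold change was 0.42 (95% interval -0.20 to 1.05, adjusted p = 0.214 by edgeR), and 0.16 without M1BP RNAi replicate 1.

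The other troponin C genes were at low levels in this muscle. TpnC73F (FBgn0010424, 3L:17046063-17048390, plus strand, 1059 bp of exon) had 150.5, 70.1 and 135.7 normalized counts in M1BP RNAi, against 58.2, 78.3 and 130.5 in WT. TpnC47D (FBgn0010423, 2R:11273845-11275286, minus strand, 791 bp of exon) rested on 19, 7 and 46 raw counts in M1BP RNAi, against 3, 16 and 14 in WT. Both pairs of groups overlapped. The log2 fold change was 0.39 for TpnC73F (95% interval -0.45 to 1.23, adjusted p = 0.386 by edgeR) and 0.47 for TpnC47D (95% interval -0.89 to 1.82, adjusted p = 0.523 by edgeR), and that of TpnC47D changed sign, to -0.024, without M1BP RNAi replicate 3. A change of 1.5-fold in either direction was not detectable at the depth of TpnC47D.

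TpnC25D (FBgn0031692, 2L:5216701-5219053, plus strand, 1250 bp of exon) had the highest fold change of the 10 genes and also a wide spread. It had 218.5, 122.2 and 184.6 normalized counts in M1BP RNAi, against 34.2, 41.1 and 123.9 in WT. WT replicate 3 stood far above the other WT samples and above M1BP RNAi replicate 2, so that the groups overlapped. The log2 fold change was 1.34 (SE 0.46, 95% interval 0.27 to 2.41, adjusted p = 0.0385 by edgeR), and 2.21 with adjusted p = 0.00166 without WT replicate 3. WT replicate 3 was also high for ple, a cuticle gene picked after its values were seen, with 664.8 normalized counts there against 71.9 and 102 in the other WT samples and 408 to 994 in M1BP RNAi. The other tested epidermal and cuticle markers, Cpr49Ae and Ddc, had log2 fold changes of -0.19 and -0.43. For Cpr49Ae, WT replicate 3 was the highest WT sample, at 313.0 normalized counts against 121.5 and 159.3 in WT replicates 1 and 2. Its M1BP RNAi samples were at 281.4, 108.2 and 140.6. For Ddc, WT replicate 3 (393.4) was not above WT replicate 2 (410.2). In addition, 54 bp (4.32%) of the exons of TpnC25D overlap tkv on the opposite strand, a gene with 11673 raw counts in all against 818 for TpnC25D. Whether the reads were counted by strand is not given in the sources used here, so the value of TpnC25D is uncertain, and the part of ple-expressing tissue in it was not tested.

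Tropomodulin was on the other side of WT. The tmod gene (FBgn0082582, 3R:30532607-30578905, plus strand, 8320 bp of exon) had 16944, 18724 and 17691 normalized counts in M1BP RNAi, against 24430, 25298 and 20644 in WT. All 3 M1BP RNAi samples were below all 3 WT samples and close to each other. This corresponded to a log2 fold change of -0.40 (SE 0.13, 95% interval -0.70 to -0.10), or 1.32-fold lower, with adjusted p = 0.0314 by edgeR, and it became 0.35 under scaling by total library size, which is 0.42 below the median of all genes in that scaling. Among the fits that omitted a sample, adjusted p by edgeR was 0.0176 without WT replicate 3 and 0.063 to 0.107 in the others.

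**Figure D2:**
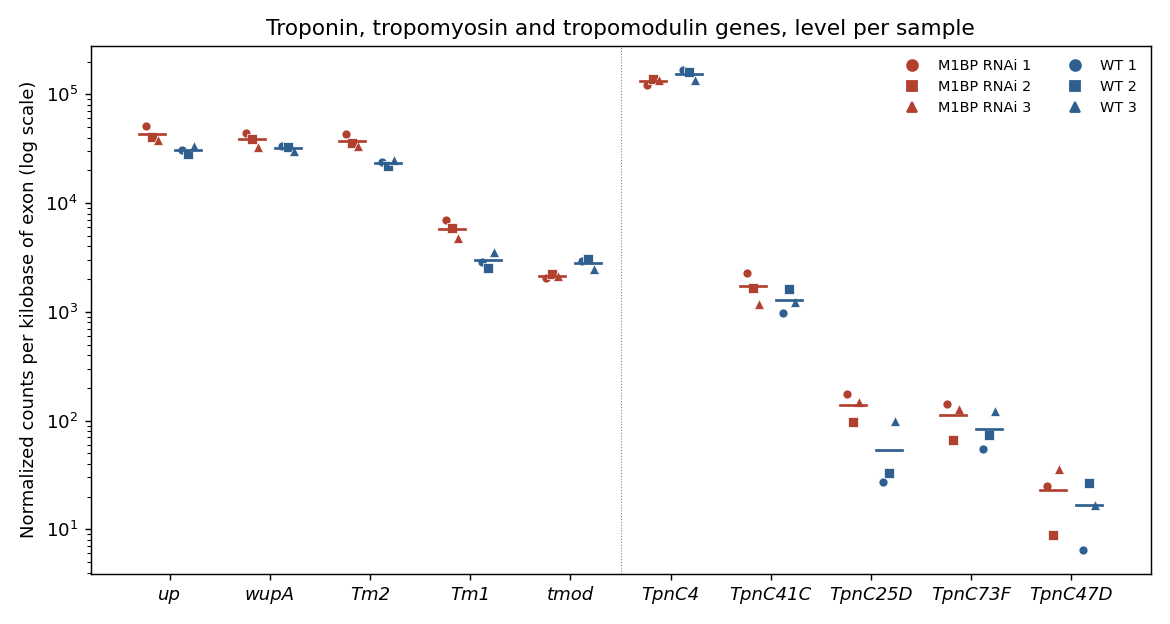
Normalized counts per kilobase of exon on a log axis for each gene, with the 3 M1BP RNAi samples left of the 3 WT samples, a symbol for each replicate and a line at each group mean; the dotted line separates the troponin C genes. TpnC4 is at 121120 or more in every sample, TpnC47D is under 36 in every sample, and the M1BP RNAi symbols lie wholly above WT for Tm1, Tm2 and up and wholly below for tmod.

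To compare levels between genes, normalized counts were divided by exon length. In M1BP RNAi the order was TpnC4 at 131796 ± 9497 normalized counts per kilobase (SD, n = 3), up at 42974 ± 7047, wupA at 38521 ± 5508, Tm2 at 37558 ± 5052, Tm1 at 5837 ± 1104, tmod at 2138 ± 107 and TpnC41C at 1713 ± 556. TpnC25D at 140 ± 39, TpnC73F at 112 ± 40 and TpnC47D at 23.1 ± 13.4 normalized counts per kilobase followed. In WT the order was TpnC4 at 154442 ± 17596 normalized counts per kilobase (SD, n = 3), wupA at 32297 ± 1751, up at 30774 ± 2621, Tm2 at 23483 ± 1500, Tm1 at 2997 ± 515, tmod at 2819 ± 297, TpnC41C at 1278 ± 317, TpnC73F at 84.0 ± 35.2, TpnC25D at 53.1 ± 39.9 and TpnC47D at 16.7 ± 10.2. The ranges of up, wupA and Tm2 overlapped in M1BP RNAi, as did those of tmod and TpnC41C and of TpnC25D and TpnC73F. In WT, up overlapped wupA, Tm1 overlapped tmod, and TpnC73F overlapped TpnC25D. The exon length of Tm1 and tmod sums the exons of all isoforms, which lowers their level per kilobase relative to compact genes such as TpnC4. By this measure TpnC4 ranked 21st of 9276 genes in M1BP RNAi and 19th in WT, Tm2 60th and 89th, and TpnC47D 7317th and 7810th.

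The flight muscle troponin C genes were set against the other troponin C genes within each library, where the scaling between libraries drops out. Per kilobase, TpnC4 made up 98.5 ± 0.55% of all troponin C RNA in M1BP RNAi and 99.1 ± 0.26% in WT (SD, n = 3 each), and TpnC41C 1.30 ± 0.50% and 0.83 ± 0.22%. TpnC47D, TpnC73F and TpnC25D were each under 0.15% in every library. The ratio of TpnC4 plus TpnC41C to the other 3 genes was 361, 816 and 437 in M1BP RNAi, against 1900, 1216 and 568 in WT. WT replicate 3 lay below M1BP RNAi replicate 2. The difference of the log2 ratios was -1.12, with p = 0.2 by a two-sided exact permutation test over the 6 samples (0.229 after Benjamini-Hochberg adjustment over 8 ratios), where 3 against 3 samples cannot give less than 0.1. With TpnC25D left out, whose own value is uncertain, the difference was -0.63, and it was -0.72 without WT replicate 1 and -1.59 without WT replicate 3. TpnC4 to TpnC41C was 52.9, 83.4 and 114 in M1BP RNAi, against 170, 99.8 and 109 in WT, a log2 difference of -0.62 (exact permutation p = 0.3, adjusted 0.3). Neither ratio separated the groups.

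Other ratios between partners of the complex did separate them, 4 of the 8 ratios. Among all single genes tested, 64.2% did not overlap between the groups. Both tropomyosin genes together, relative to troponin I (wupA), were at 1.15, 1.06 and 1.17 in M1BP RNAi, against 0.791, 0.740 and 0.940 in WT, 1.38-fold higher. All troponin C relative to wupA was at 2.83, 3.60 and 4.17 in M1BP RNAi, against 5.04, 4.92 and 4.49 in WT, 1.38-fold lower. The groups did not overlap in either ratio, and M1BP RNAi replicate 1 had the lowest troponin C ratio. The ratio of tmod to wupA was 0.0466, 0.0575 and 0.0650 in M1BP RNAi, against 0.0876, 0.0919 and 0.0819 in WT, 1.56-fold lower and without overlap. The ratio of wupA to Act88F, the flight muscle actin, was 0.156, 0.217 and 0.185 in M1BP RNAi, against 0.579, 0.629 and 0.437 in WT, 2.94-fold lower. By normalized counts wupA alone overlapped between the groups, while Act88F was 3.54-fold higher in M1BP RNAi. Each of these 4 ratios had p = 0.1 by the two-sided exact permutation test, the smallest that 3 against 3 samples allow, and 0.2 after adjustment over 8 ratios, so none could pass 0.05.

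The ratios of Tm1 to Tm2 and of up to wupA overlapped between the groups. Tm1 to Tm2 was 0.160, 0.164 and 0.140 in M1BP RNAi, against 0.123, 0.116 and 0.143 in WT, and up to wupA was 1.17, 1.03 and 1.15 in M1BP RNAi, against 0.924, 0.848 and 1.10 in WT. Both had p = 0.2 by the exact permutation test and 0.229 after adjustment. The ratio of both tropomyosin genes to all troponin C, added after the values were seen, was 0.406, 0.295 and 0.281 in M1BP RNAi, against 0.157, 0.150 and 0.209 in WT, 1.90-fold higher and without overlap (exact permutation p = 0.1, not adjusted). M1BP RNAi replicate 1 was the highest M1BP RNAi sample in Tm1, Tm2, up, wupA, TpnC41C, TpnC73F and TpnC25D and the lowest in TpnC4 and tmod. Act88F, Mhc and Act79B were also highest in that sample.

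**Figure D3:**
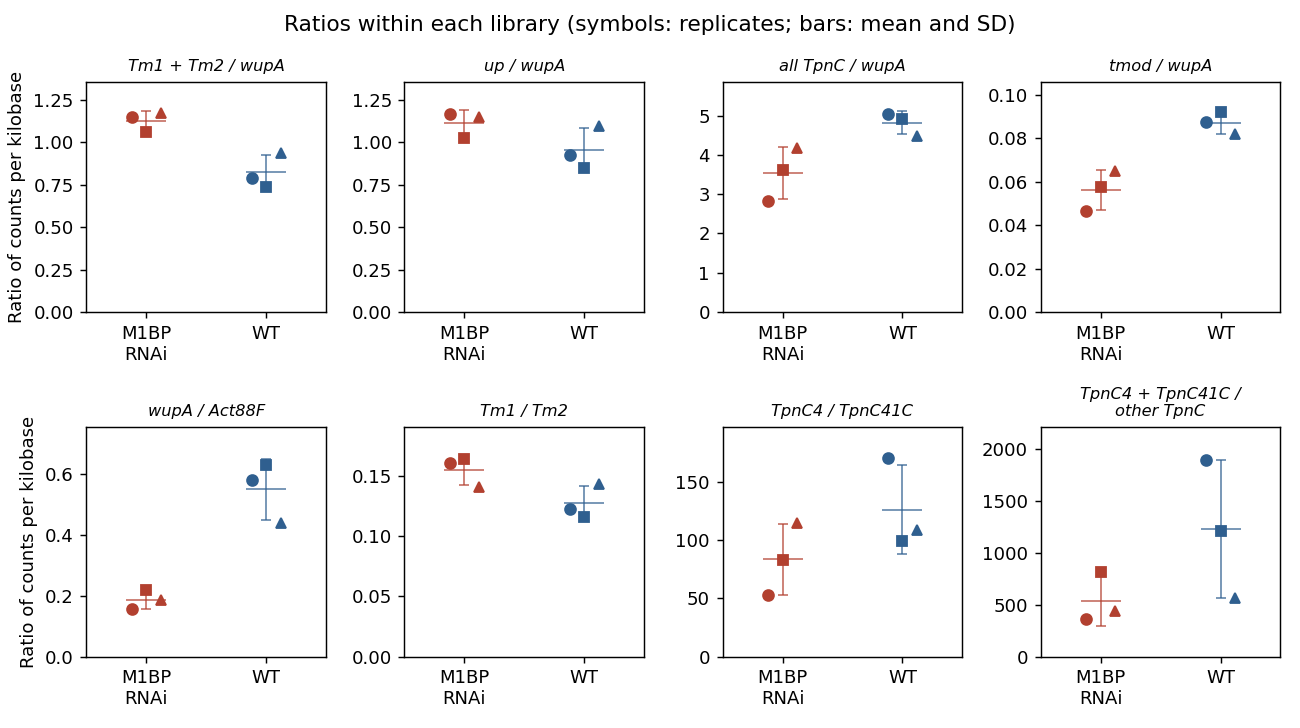
Ratios of counts per kilobase within each library, M1BP RNAi left of WT, on linear axes from 0, with a symbol for each replicate and bars for the mean and SD of 3 samples. The groups are apart in the upper row except for up to wupA, and wupA to Act88F is apart in the lower row, at 0.156 to 0.217 in M1BP RNAi and 0.437 to 0.629 in WT.

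Other muscle genes were read from lists of the thin filament, the thick filament and Z-disc, calcium handling and muscle fate. Over all genes tested, 11.0% were called higher and 6.58% lower, and the edgeR counts with TMM scaling that follow stand beside those shares. Counts under total library size stand beside 2576 higher and 137 lower of 9276 genes. Those by DESeq2 stand beside 17.8% higher and 14.2% lower. The thin filament list also includes the myosin chaperone gene unc-45. Of its 16 genes tested, 5 rose, unc-45 among them, and 1 fell, with a median log2 fold change of 0.61. Under total library size 7 were higher and 0 lower, with a median of 1.34. Act88F, the actin to which the complex binds, had 446355, 288204 and 281650 normalized counts in M1BP RNAi, against 92435, 83819 and 110520 in WT, a log2 fold change of 1.83 (adjusted p = 3.82e-04 by edgeR). The myosin chaperone gene unc-45 rose by 1.59, the cofilin gene tsr by 1.51 and GstS1, which encodes a glutathione S-transferase found on flight muscle thin filaments, by 1.38 on the log2 scale. The formin gene Fhos fell by 1.41. With TMM scaling and all 6 samples the Act88F change was 3.54-fold, while none of the 10 troponin, tropomyosin and tropomodulin genes reached 2-fold except TpnC25D. Under total library size Act88F was at 2.57 on the log2 scale, against a median of 0.77 over all genes. The 10 genes then ran from 0.35 (tmod) to 2.05 (TpnC25D), with Tm1 at 1.70.

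Of 17 genes of the thick filament, connecting filament and Z-disc, 3 rose and 2 fell, with a median log2 fold change of 0.41. Under total library size 11 were higher and 1 lower, with a median of 1.17, and DESeq2 called 5 higher and 2 lower. Msp300 (2.13), myosin heavy chain Mhc (1.63) and Mlp60A (1.04) rose, and Mf, which encodes myofilin of the thick filament, and Zasp66 of the Z-disc fell by 3.35 and 1.52. Of 15 calcium handling genes tested, of 16 listed, 2 rose and 2 fell, with a median of -0.45. Under total library size 4 were higher and 1 lower, with a median of 0.30, and DESeq2 called 2 higher and 5 lower. The calcium pump gene SERCA, which returns calcium to the sarcoplasmic reticulum, fell by 1.88 and the inositol trisphosphate receptor gene Itpr by 0.78 (-0.03 under total library size, not past the threshold), whereas the calcium channel genes Ca-alpha1D (1.03) and Ca-Ma2d (0.89) rose.

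Of 18 regulators of flight muscle fate and splicing tested, of 19 listed, 2 rose and 3 fell, with a median log2 fold change of -0.64. Under total library size 2 were higher and 0 lower, with a median of 0.11, and DESeq2 called 2 higher and 6 lower. The splicing factor genes bru1 and Hrb87F rose by 1.24 and 0.85 on the log2 scale. The flight muscle selector gene salm, sd, which encodes the DNA-binding partner of Vestigial, and Mef2, the myogenic factor that activates many contractile genes, fell by 1.48, 1.21 and 0.94. Under total library size Fhos, Zasp66, salm, sd and Mef2 were still below 0, at -0.66, -0.76, -0.76, -0.46 and -0.20, but no longer past the threshold. The 5 tubular muscle markers, which include TpnC73F and TpnC47D, had no called gene by edgeR (1 at an unadjusted p of at most 0.05, and 0 called by DESeq2), where 17.5% of all genes were called by edgeR and 61.1% had such a p, so that a count over 5 genes says little. Their summed level was 7900 to 19824 normalized counts in M1BP RNAi and 4639 to 9148 in WT, most of it from Act79B and highest in M1BP RNAi replicate 1. Beside these lists, the 10 genes had log2 fold changes of -0.40 to 1.34 and no call by edgeR with TMM scaling. They had 2 genes called higher by DESeq2 and 4 under total library size. With 17.5% of all genes called by edgeR, a count over 10 genes also says little.

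**Figure D4:**
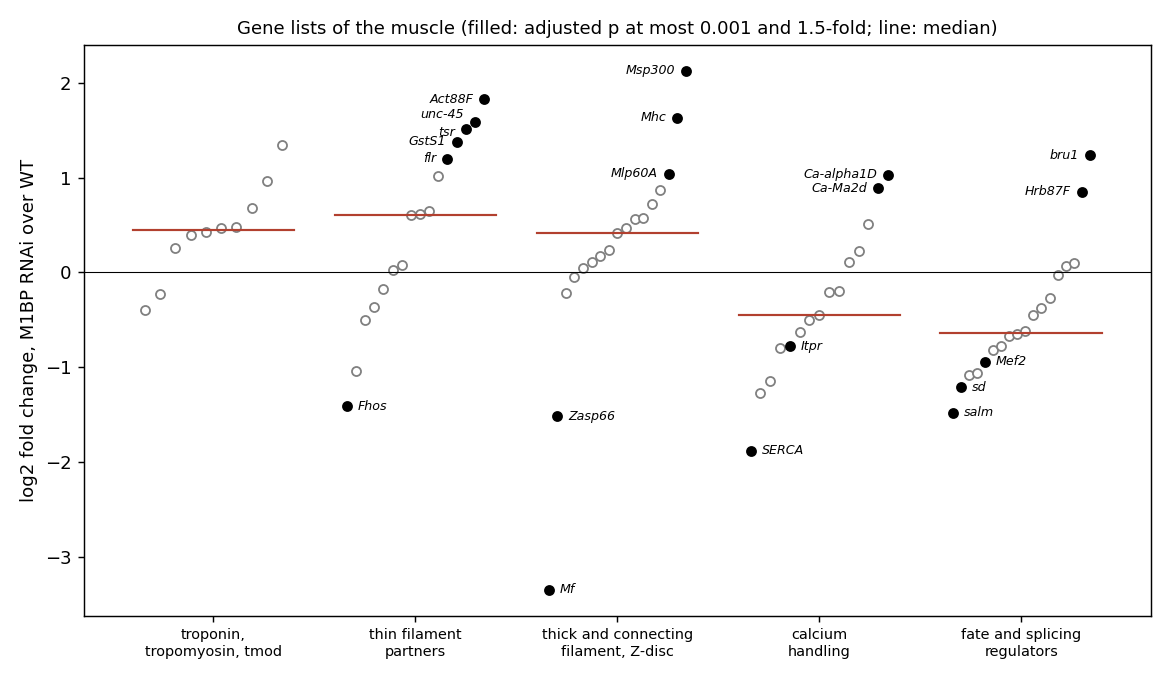
Log2 fold change, M1BP RNAi over WT with TMM scaling, of each tested gene in 5 lists; filled, named points passed an adjusted p of at most 0.001 and 1.5-fold, and the red line is the list's median. The 10 troponin, tropomyosin and tmod genes hold no filled point, with a median of 0.44, while the other lists run from -3.35 (Mf) to 2.13 (Msp300); under scaling by total library size the median of all genes lies 0.77 above 0.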

How the data were processed

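Adult indirect flight muscle RNA of 3 M1BP RNAi and 3 WT samples was analysed, with groups taken from the sample labels. Libraries were stranded, poly(A)-selected TruSeq libraries. The authors deposited raw counts per gene over exons, without normalization. The submitters' processing notes name bcl2fastq 2.17.1.14, Subread, featureCounts, DESeq2 1.3.0 and the genome build dm6; whether counting used strand is not given in the sources used here. A deposited table of the authors' own comparison holds fold changes and p-values, which were not used; its gene symbols were joined to the counts by gene identifier. Coordinates are those of the count table, and 9 of the 10 genes had the same ends in a reference annotation (Tm1 differed). No column of counts was left unused.

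Counts were tested with edgeR 4.0.16 (R 4.3.3; filterByExpr, TMM, glmQLFit and glmQLFTest), M1BP RNAi over WT, with Benjamini-Hochberg adjustment over 9276 genes. A gene was called where the adjusted p was 0.001 or less and the change 1.5-fold or more. Normalized counts are counts over the effective library size, times the mean of the 6 effective library sizes. Standard errors were taken from the F statistic. Ratios of counts per kilobase of exon were compared by two-sided exact permutation tests (scipy 1.17.1). The fit was tested on simulated data. Alternatives were RLE scaling, total library size, TMM on nuclear genes, DESeq2 1.42.0, no filter, a threshold of 0.05, each sample left out and the replicate number as a block. Precision is limited by 3 samples a group and, for TpnC47D, TpnC73F and TpnC25D, by low counts.

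The text names the 10 genes, M1BP, up to 3 list genes in each direction past the threshold with the largest changes, and Act88F, GstS1, bru1, salm and Mef2. For TpnC4 and TpnC41C it also names the 3 genes with the highest correlation over the samples. The genes and lists were chosen with earlier results of these data known. The tropomyosin to troponin C ratio and ple were added after seeing the data.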

Additional observations from a re-analysis of the deposited data

How the results depend on the processing

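By edgeR, the count of the 10 genes past the threshold was 0 under RLE scaling, TMM on nuclear genes, no filter, the replicate block and each sample left out (0 to 0). It was 4 (Tm1, Tm2, up and wupA) under scaling by total library size, 2 under DESeq2 and 3 at an adjusted p of at most 0.05. Over all genes the count was 1626, against 2713 under total library size, 2972 under DESeq2, 4373 at an adjusted p of at most 0.05 and 602 to 1278 with a sample left out, the lowest without WT replicate 1. Total library size turned TpnC4 to 0.53 and tmod to 0.35, and TpnC47D was at -0.024 without M1BP RNAi replicate 3 and up to 0.93 without WT replicate 2. Relative to the median of all genes, 0.77 in that scaling, TpnC4 was at -0.24 and tmod at -0.42. Subtracting the median largely undoes the shift between the scalings, so these values are no separate check of the sign. At an adjusted p of 0.05 by edgeR, up, TpnC25D and tmod were each lost in most sets of 5 samples, and tmod reached 0.0705 with no filter. All 8 ratios and the added ratio kept their direction in every alternative run, but many of these runs could not change it. The replicate block returns the main difference of a ratio by construction. Dropping the division by length cannot alter that difference where a single gene is set against another. Where the groups did not overlap, leaving out a sample cannot turn the sign. No p under 0.1 was possible in these designs.

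Same-numbered samples deviated together weakly or not at all (correlations 0.052, 0.171 and -0.011), and the labels give the numbers no meaning, so that the samples share only a number. With the replicate block, 790 genes passed (544 higher, 246 lower) and 0 of the 10.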

Other observations

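The genes whose log2 normalized counts followed TpnC4 most closely over the 6 samples were Pepck2 (Pearson r = 0.999), EndoU (0.998) and CG31357 (0.997). None of these passed the threshold, with log2 fold changes of -0.65, -0.26 and -0.39. For TpnC41C they were CG1806 (r = 0.992), MFS18 (0.987) and POSH (0.981), with log2 fold changes of 0.21, 0.19 and 0.27, also not past the threshold. These correlations are descriptions over 6 libraries that share depth and scaling, taken as the highest of all genes tested. The 10 genes together held 2.72 ± 0.16% of nuclear counts in M1BP RNAi and 2.23 ± 0.07% in WT (SD, n = 3 each), without overlap.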
